A study of Homo sapiens with 4 samples.

Results

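Alpha and beta tubulin genes were read across 4 arrays of U87TR-Da cells, a line made from the glioblastoma cells U87MG so that doxycycline induces DACH1, a transcriptional repressor found in the nucleus. The 10 genes were TUBA1A, TUBA1B, TUBA1C, TUBA4A, TUBB, TUBB2A, TUBB2B, TUBB3, TUBB4B and TUBB6, and every probe set that the platform annotation assigns to 1 of them alone was taken, 20 of 54613 probe sets on the array. These are 4 alpha and 6 beta tubulin genes among 19775 named genes. One further probe set, listed with both TUBB2B and TUBB2A, was left out by that rule.

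The 4 cultures were DACH1-silenced or DACH1-induced cells in DMEM with 10% FBS, and the same 2 states in Neurobasal medium without serum, to which B-27, N-2, EGF and bFGF had been added. Every sample, the silenced ones included, carries the same label of doxycycline at 1 µg/mL over 72 h, and how the silenced state was kept is not stated. Each condition was measured on 1 array, and the labels do not say whether the line is 1 clone. With so few arrays, every value below has limited precision.

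Alpha and beta tubulins pair into the heterodimers that polymerise into microtubules, the tracks for transport in the cell and the fibres of the mitotic spindle. Vertebrates have several genes for each subunit, whose products are nearly alike except in their acidic tails, and tissues differ in which ones they use. TUBA1A, TUBB2A, TUBB2B and TUBB3 are abundant in the developing or adult nervous system, while TUBA1B, TUBA1C, TUBB and TUBB4B are made in most dividing cells. Cells also hold their tubulin mRNA to the amount of free dimer: TTC5 binds the first residues of a growing tubulin chain and starts the decay of the mRNA being translated.

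The labels were set against the arrays first. The brightest probe set for DACH1 read 126.0 and 4431 in silenced and induced cells labelled serum, and 32.5 and 875.1 in those labelled serum-free. A dimmer probe set for DACH1 showed no such rise, with 23.1 and 24.7, then 12.1 and 2.9. A further one read at most 8.3 on every array. Of 12 genes of the SRF, YAP and ID group, many of which serum is known to induce, 7 rose and 3 fell in the serum-free label (limma, adjusted p under 0.05). ID3 rose 18.1-fold and CNN1 20.1-fold, while EGR1 fell 28.3-fold and FOS 8.83-fold, and only 1 of 8 sterol synthesis genes in the fit, LSS, was called. The list gave no single direction, so each medium is named below by its label alone. Of 8 astrocyte and glioma markers, GFAP, S100B, AQP4 and SOX2 lay under the median of all signals (17.2) on every array, as did 5 of 8 neuronal markers and 4 of 7 immune, endothelial and oligodendrocyte markers. Of the 3 neuronal markers in the fit, 2 rose in the serum-free label (limma, adjusted p under 0.05), with 2 above and 1 below 0. Among all genes in the fit 16.1% rose and 13.3% fell by that test. With DACH1 in the serum label 2 of the 3 were at least 2-fold lower, where 4.77% of all genes compared were. SNAP25, of the synaptic fusion machinery, read 160.2 in silenced and 68.6 in induced cells labelled serum and 370.3 and 352.5 with the serum-free label, and GAP43, of growth cones, read 0.7 and 17.9, then 47.0 and 85.4. Of the 4 astrocyte and glioma markers in the fit 0 rose and 1 fell by the same test, with 1 above and 3 below 0. OLIG2, a glial lineage factor, was the 1 that fell, from 58.4 and 79.9 to 12.2 and 12.3. The part of these markers in the tubulin differences was not tested.

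One of the 10 genes was not measurable. TUBB2B, a tubulin of migrating neurons, read 8.8 in silenced and 12.3 in induced cells labelled serum, and 11.9 and 6.5 with the serum-free label. These values lie around the floor of 10.9, the signal to which lower ones were raised before log2, so no fold is given. One probe set of TUBA1B also failed the filter on low signals, with values between 4.6 and 10.5. The other 18 probe sets, for 9 genes, read at least 453.1 on every array, and of these 9 measured genes each is given at its brightest probe set unless said otherwise.

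**Figure D1:**
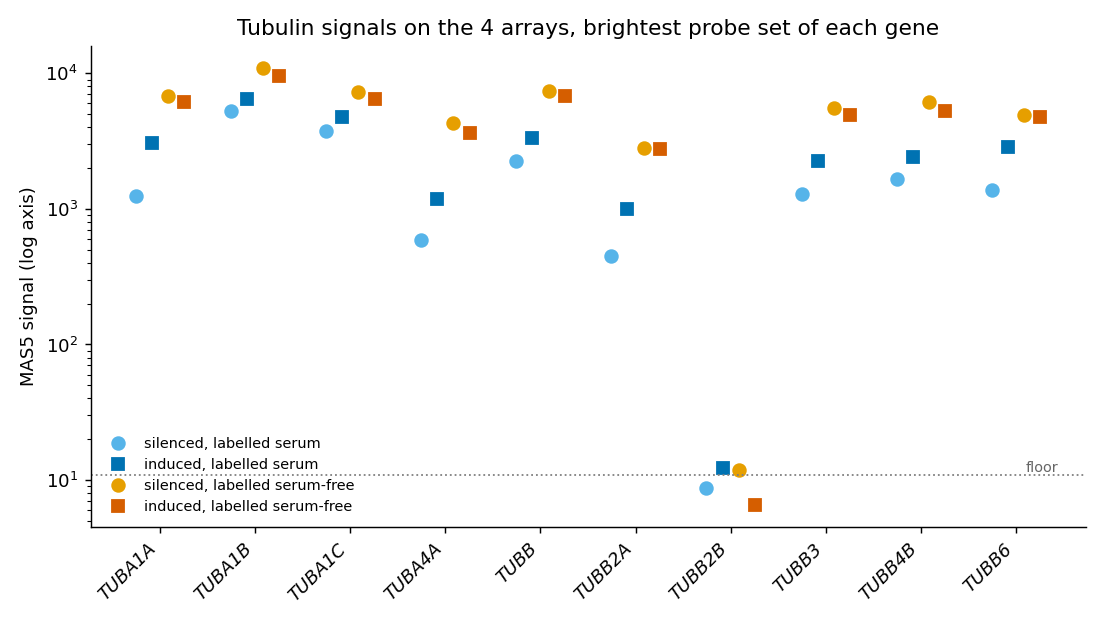
MAS5 signal on a log axis for the brightest probe set of each of the 10 tubulin genes, with 1 point per array: circles are silenced, squares induced, blue labelled serum and orange labelled serum-free. In the 9 measured genes both orange points lie above both blue points and the silenced array labelled serum is the lowest, while TUBB2B lies around the dotted floor of 10.9.

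TUBA4A, an alpha tubulin that, unlike most, is made without a C-terminal tyrosine, read 589.7 in silenced and 1182 in induced cells labelled serum, and 4277.5 and 3660.2 in those labelled serum-free. TUBB2A, a beta tubulin of neurons and many other cells, read 453.1 and 992.7 labelled serum and 2803 and 2762 labelled serum-free. TUBA1A, the main alpha tubulin of developing neurons, read 1239 and 3057 labelled serum and 6829 and 6198 labelled serum-free. In each of these 3 genes the silenced array labelled serum stood apart as the lowest, the induced one lay between, and the 2 arrays labelled serum-free lay close together at the top.

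TUBB3, the class III beta tubulin used as a marker of neurons and raised in many cancers, read 1279 and 2249 labelled serum against 5513.5 and 4901.5 labelled serum-free. TUBB4B, a widely expressed beta tubulin also found in cilia, read 1673 and 2397 against 6107 and 5236. TUBB, the common beta tubulin of dividing cells, read 2255 and 3317 against 7452 and 6756. These 3 genes had the same order of arrays, with a smaller gap, as a fold, between the 2 arrays labelled serum.

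TUBB6, a class V beta tubulin whose excess is known to disturb microtubule networks, read 1369 and 2847 labelled serum and 4949.6 and 4770.3 labelled serum-free. TUBA1B, the common alpha tubulin, read 5286 and 6509 against 10985 and 9558. TUBA1C, another widely expressed alpha tubulin, read 3782 and 4747 against 7277 and 6522. TUBA1B and TUBA1C spanned the narrowest ranges of the 9 measured genes as a fold, though not in signal units.

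The order silenced serum, induced serum, induced serum-free, silenced serum-free, from low to high, held in 9 of 9 measured genes and in all 18 of their probe sets. It held in 10.8% of the 12103 genes in the fit. Of the 760 genes at least as bright on average as TUBB2A, the dimmest measured tubulin, 22.6% had it. Both the order and this comparison set were chosen after the values were seen. The shares include the 9 tubulins themselves, so they describe the order and are no test of it. The step between the 2 arrays labelled serum-free depends on scaling: with quantile normalization it turned in 5 of the 9 genes. The probe sets are not independent readings, since 15 of the 20 end in _x_at or _s_at, which marks probes that also match related transcripts. The 4 measured probe sets that end in neither belong to TUBA4A, TUBB, TUBB2A and TUBB6.

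The first comparison asks how the culture medium changed tubulin mRNA. TUBA4A rose 4.74-fold in the arrays labelled serum-free (log2 difference 2.24, SE 0.35, limma adjusted p 0.0159), and TUBB2A rose 4.15-fold (SE in log2 0.33, adjusted p 0.0174). The rise of TUBA1A was 3.34-fold (SE 0.38, limma adjusted p 0.0321), that of TUBB3 3.07-fold (SE 0.30, adjusted p 0.0231) and that of TUBB4B 2.82-fold (SE 0.27, adjusted p 0.0209). TUBB rose 2.59-fold (SE 0.26, adjusted p 0.0235) and TUBB6 2.46-fold (SE 0.32, adjusted p 0.0416). TUBA1B, 1.75-fold higher, and TUBA1C, 1.63-fold higher, did not pass (SE 0.24 for both, limma adjusted p 0.0608 and 0.0825).

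Thus 7 of 9 measured tubulins rose and 0 fell. Among all genes in the fit 16.1% rose and 13.3% fell, and among the 760 bright genes 14.3% rose. Of the 18 tubulin probe sets 12 rose, where 16.3% of all probe sets in the fit rose and 12.1% fell. The median log2 difference of the 9 tubulins was 1.50, against 0.02 over all genes in the fit and 0.12 over the bright ones. Each direction held in 2 of 2 pairs of arrays. The limma fit had DACH1 state and medium as terms and 1 residual degree of freedom, so its error comes from how the DACH1 difference varies with the medium, and its p-values describe these arrays alone, not repeated cultures. Without the filter 0 of the tubulins passed, and with no floor 3 did.

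Within single pairs, which have no test, silenced cells showed the wider gap. From the serum to the serum-free label TUBA4A was 7.25-fold higher in silenced and 3.10-fold higher in induced cells, TUBB2A 6.19-fold and 2.78-fold, and TUBA1A 5.51-fold and 2.03-fold. At least 2-fold higher were 8 of 9 tubulins in silenced cells, where 15.3% of all compared genes and 14.5% of the bright ones were, and 6 of 9 in induced cells, where 14% and 8.95% were. The exception in silenced cells was TUBA1C at 1.92-fold. The median log2 difference of the tubulins was 1.87 in silenced and 1.03 in induced cells, against medians of 0.06 and 0.01 over all genes compared.

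**Figure D2:**
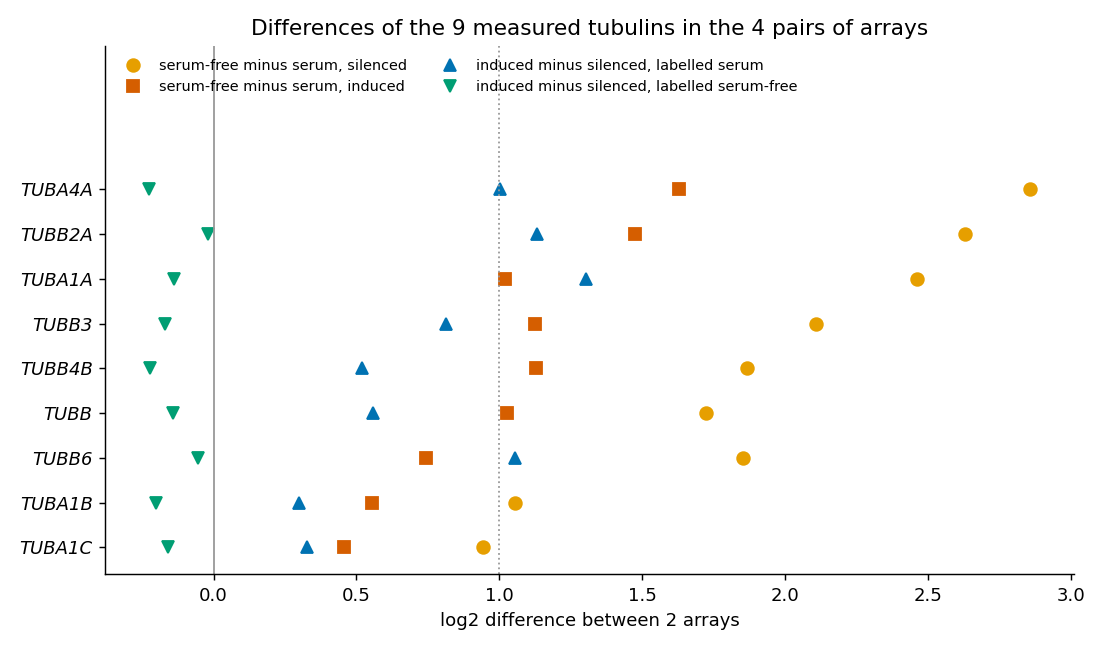
Log2 difference between 2 arrays for the 9 measured tubulins, 1 row per gene in order of the fitted medium difference, with 1 marker per pair and a dotted line at 2-fold. The medium difference is larger in silenced cells (0.94 to 2.86) than in induced cells (0.46 to 1.63) in each gene, the DACH1 difference labelled serum lies between 0.30 and 1.30, and that labelled serum-free lies between -0.22 and -0.02 as deposited, where 5 of 9 turn above 0 with quantile normalization.

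Alpha and beta genes overlapped. The 4 alpha genes spanned 0.70 to 2.24 in the fitted medium difference and the 5 measured beta genes 1.30 to 2.05. The alpha genes were split within themselves, TUBA4A and TUBA1A high and TUBA1B and TUBA1C low, although TUBA1B, TUBA1A and TUBA1C are direct neighbours on 1 chromosome by the RefSeq gene table (GRCh38.p14). TUBB2A and TUBB2B are neighbours too, the former bright and raised and the latter at the floor. TUBA1B and TUBA1C also had the highest mean log2 signals of the measured tubulins (12.92 and 12.40), against 10.83 for TUBA4A and 11.80 for TUBA1A. All their measured probe sets end in _x_at. The part of brightness and of probes that match related transcripts in the split of the alpha genes was not tested.

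Probe sets of 1 gene gave like values for the medium. Over 5 probe sets of TUBA1B the fold ran from 1.72 to 1.89 with adjusted p (limma) between 0.0474 and 0.0696, so that 1 of the 5 passed. The 3 probe sets of TUBB gave 2.59-fold to 2.86-fold, and the 2 of TUBB4B 2.80-fold and 2.82-fold. TUBB3 was the least even: its dimmer probe set, which read 569.3 and 820.7 labelled serum against 3352 and 2950.3 labelled serum-free, gave 4.60-fold where the brighter gave 3.07-fold. Both probe sets of TUBB3 are of the _x_at kind. Using just the 4 genes with probe sets of neither ending, 4 of 4 rose and their median log2 difference was 1.79.

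The members, the unmeasurable TUBB2B among them, were set beside their promoters. The 250 bases before each start were read from RefSeq (GRCh38.p14) for all 10 genes, 15 windows in all, and searched on both strands for the CCAAT box (CCAAT or ATTGG), which the factor NF-Y binds, and for the cell cycle homology region, CHR (TTTGAA or TTCAAA), an element of many promoters active in G2 and mitosis. The 4 windows printed are those of the genes with the highest medium differences, TUBA4A and TUBB2A, and those of TUBB4B and TUBA1C, the 2 genes with a window that holds both motifs. Capitals mark the matches, and each is given 5′ to 3′ on the gene's strand.
TUBA4A, chr2:219253919-219254168, minus strand: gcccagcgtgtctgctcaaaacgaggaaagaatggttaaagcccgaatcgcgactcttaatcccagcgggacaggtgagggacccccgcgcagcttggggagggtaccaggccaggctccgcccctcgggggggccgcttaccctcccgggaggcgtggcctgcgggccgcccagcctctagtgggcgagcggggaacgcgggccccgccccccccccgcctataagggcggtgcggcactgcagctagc
TUBB2A, chr6:3157545-3157794, minus strand: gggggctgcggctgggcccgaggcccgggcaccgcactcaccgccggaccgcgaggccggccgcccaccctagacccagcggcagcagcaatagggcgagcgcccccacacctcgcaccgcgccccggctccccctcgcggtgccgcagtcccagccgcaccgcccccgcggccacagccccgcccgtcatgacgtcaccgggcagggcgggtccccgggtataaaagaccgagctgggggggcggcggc
TUBB4B, chr9:137241037-137241286, plus strand: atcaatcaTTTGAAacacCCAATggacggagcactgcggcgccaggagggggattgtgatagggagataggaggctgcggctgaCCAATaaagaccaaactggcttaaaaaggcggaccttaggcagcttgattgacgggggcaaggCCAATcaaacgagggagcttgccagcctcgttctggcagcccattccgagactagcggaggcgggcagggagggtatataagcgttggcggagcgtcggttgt
TUBA1C, chr12:49264832-49265081, plus strand: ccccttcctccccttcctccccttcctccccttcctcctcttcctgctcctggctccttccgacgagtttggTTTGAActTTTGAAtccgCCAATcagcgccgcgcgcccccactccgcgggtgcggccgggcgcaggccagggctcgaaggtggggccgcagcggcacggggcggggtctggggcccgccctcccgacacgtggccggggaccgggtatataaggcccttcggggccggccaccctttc

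TUBB4B holds 3 CCAAT matches and 1 CHR match, and this window of TUBA1C, the third of 3 for that gene, holds 1 and 2. TUBA4A and TUBB2A hold neither. A CCAAT match was present in 9 of the 15 tubulin windows (60%) against 32% of all 35116 promoter windows, and a CHR match in 3 of 15 (20%) against 13.3%. Windows of 1 gene can overlap, as in TUBA1C. By gene, a CCAAT match was present in 7 of 10 tubulins (70%) against 37% of all genes, and a CHR match in 2 of 10 (20%) against 16.1%. The 7 include TUBB2B, which was not measurable on these arrays. Both motifs together were present in 4.69% of all promoter windows. In TUBA1C the first of the 3 windows, not printed, also holds both. The genes with both motifs lay in the middle (TUBB4B, 2.82-fold) and at the bottom (TUBA1C, 1.63-fold) of the medium differences. A match is a stretch of letters and not a measured site, and which start these cells use was not measured.

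The second comparison asks what DACH1 induction did to the tubulins in the serum label. TUBA1A was 2.47-fold higher in the induced than in the silenced culture, TUBB2A 2.19-fold, TUBB6 2.08-fold and TUBA4A 2.0-fold. TUBB3 was 1.76-fold higher, TUBB 1.47-fold, TUBB4B 1.43-fold, TUBA1C 1.26-fold and TUBA1B 1.23-fold. Every measured tubulin was thus brighter on the induced array, and 4 of 9 were at least 2-fold higher, where 2.91% of 12190 genes compared and 1.45% of the 760 bright genes were. Over all 18 measured probe sets 4 reached 2-fold, each the only measured one of its gene. The dimmer probe set of TUBB3 gave 1.44-fold, and the 5 of TUBA1B ran from 1.12-fold to 1.23-fold.

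The median log2 difference of the tubulins was 0.81, against 0.01 over all genes compared and 0.08 over the bright ones. This pair and the medium pair of silenced cells share the silenced array labelled serum, the lowest one for each measured tubulin, so their differences are not independent. There is no replicate of either array.

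In the serum-free label the tubulins hardly differed between DACH1 states. The values as deposited were between 1.01-fold (TUBB2A) and 1.17-fold (TUBA4A) lower in induced cells, and 0 of 9 reached 2-fold in either direction, where 1.02% of 12659 genes were that much higher and 2.72% that much lower. Of the 760 bright genes 0 reached 2-fold in either direction, so this count sets the tubulins apart from no other bright genes. The median log2 difference was -0.16, against -0.002 over all genes compared and -0.04 over the bright ones. With quantile normalization the median was 0.01, and TUBA1A, TUBA1C, TUBB, TUBB2A and TUBB6 turned to values above 0, so no direction is read from this pair.

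In the limma fit over both media 0 of 9 tubulins and 0 of all 28654 probe sets were called for DACH1 state. DACH1 itself was not called either, though its brightest probe set was 30.8-fold higher in this fit (limma adjusted p 0.111). The absence of calls therefore says little about the tubulins. At an unadjusted p under 0.05 there were 0 tubulins and 1598 probe sets (5.58%). The fitted log2 difference ran from 0.05 for TUBA1B (SE 0.24, limma adjusted p 0.998) to 0.58 for TUBA1A (SE 0.38, adjusted p 0.936). This fit assumes the same DACH1 difference in both media. Without either array labelled serum the difference of the tubulins had a median of -0.16, and without either array labelled serum-free 0.81.

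The third comparison, how far the DACH1 difference depended on the medium, has no test, since no array is left for an error. By arithmetic its value equals the medium difference of induced cells minus that of silenced cells. It therefore restates the wider medium gap of silenced cells given above and is not a further result. The log2 difference labelled serum-free minus that labelled serum was -1.44 for TUBA1A, -1.23 for TUBA4A, -1.15 for TUBB2A, -1.11 for TUBB6 and -0.98 for TUBB3. It was -0.74 for TUBB4B, -0.70 for TUBB, -0.50 for TUBA1B and -0.49 for TUBA1C. All 9 lay below 0 and had opposite signs in the 2 media as deposited, a pattern of 23.4% of the genes in the fit and 39.2% of the bright genes, of which quantile normalization left 4 of 9 tubulins. Of the 9, 4 lay at or below -1, as did 4.76% of the genes in the fit and 1.71% of the bright genes. The median was -0.98, and -0.86 with quantile normalization. DACH1 itself read 4431 on the induced array labelled serum and 875.1 on that labelled serum-free. The part of this gap in the tubulin differences was not tested.

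**Figure D3:**
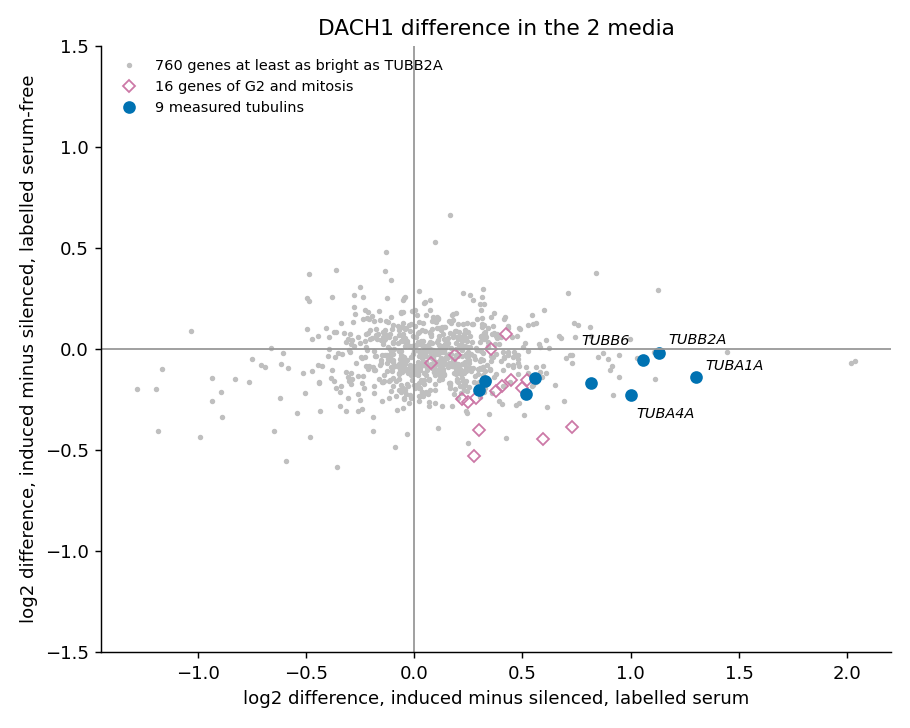
Log2 difference of induced minus silenced cells labelled serum (horizontal) and labelled serum-free (vertical) for the 760 genes at least as bright on average as TUBB2A (grey), 16 genes of G2 and mitosis (open diamonds) and the 9 measured tubulins (blue). The tubulins lie to the right, between 0.30 and 1.30, and between -0.22 and -0.02 on the vertical axis, where 5 of 9 turn above 0 with quantile normalization.

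Genes of cell division moved with the tubulins. All 16 measured genes of G2 and mitosis rose in the serum-free label by limma, with a median log2 difference of 1.98, among them KIF20A (8.38-fold), MKI67 (6.23-fold) and BIRC5 (5.37-fold). With DACH1 in the serum label 16 of 16 were above 0, with a median of 0.36 and 0 at 2-fold, and 14 of 16 had the tubulins' order of arrays. Bulk RNA cannot tell more dividing cells from more tubulin mRNA in each cell, and the part of cell division in the tubulin differences was not tested. The medium difference of the tubulins was smaller than that of the mitotic genes (median 1.50 and 1.98), while their DACH1 difference labelled serum was larger (0.81 and 0.36).

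Of 11 housekeeping genes 0 passed by limma for the medium. Their median log2 difference was 0.39, with 9 above and 2 below 0, and the adjusted p was 0.0545 for PGK1 (1.89-fold) and 0.254 for GAPDH (1.31-fold). Of 9 other cytoskeletal genes 4 rose and 0 fell, with a median of 0.69.

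Other genes of the microtubule system were read from lists of their roles, and each count is to be read against the 16.1% of all genes in the fit that rose and the 13.3% that fell. Of the tubulins outside the family described here, TUBE1, the epsilon tubulin of centrioles, fell 3.58-fold in the serum-free label (log2 difference -1.84, SE 0.33, limma adjusted p 0.0209). It read 873.4 and 354.8 in silenced and induced cells labelled serum and 165.3 and 146.5 in those labelled serum-free, so it was highest on the array where the measured alpha and beta genes were lowest. It was the only one of 6 such genes with a probe set of its own to be called, and 4 of the 6 did not pass the filter on low signals. Of 10 genes of the gamma-tubulin ring complex, which seeds microtubules, 1 rose and 0 fell, TUBGCP5 by 1.75-fold (adjusted p 0.046).

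In the folding machinery of tubulin few genes were called. Prefoldin and the CCT chaperonin take up the new chain, and the tubulin cofactors assemble the dimer. Of 18 genes of these groups in the fit, 0 rose and 3 fell in the serum-free label, where 16.1% of all genes in the fit rose and 13.3% fell. The other 15 did not pass, and the median log2 difference was -0.36. The prefoldin genes PFDN2 and PFDN4 fell 2.51-fold and 2.22-fold and the chaperonin gene CCT6A 1.97-fold (limma adjusted p 0.0183, 0.0222 and 0.0298). CCT6A read 1437 and 1444 labelled serum and 729.9 and 730.5 labelled serum-free, with no gap between DACH1 states.

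Enzymes that modify tubulin were mixed: 3 of 15 in the fit rose and 1 fell. SVBP, the partner of the vasohibins that cut the C-terminal tyrosine from alpha tubulin, rose 2.02-fold, and the tubulin ligase family genes TTLL7 and TTLL3 rose 2.25-fold and 2.46-fold, from signals under 50 in the serum label. TTLL4, a glutamylase gene, fell 2.72-fold (limma adjusted p 0.0155). Of the 3 genes tied to the decay of tubulin mRNA, SCAPER rose 3.12-fold (21.3 and 22.5 against 68.1 and 68.5). TTC5 read 71.9 and 62.0 labelled serum and 69.7 and 69 labelled serum-free, and CNOT11 424.9 and 411.7 against 372.9 and 322.1. Neither of the latter was called.

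**Figure D4:**
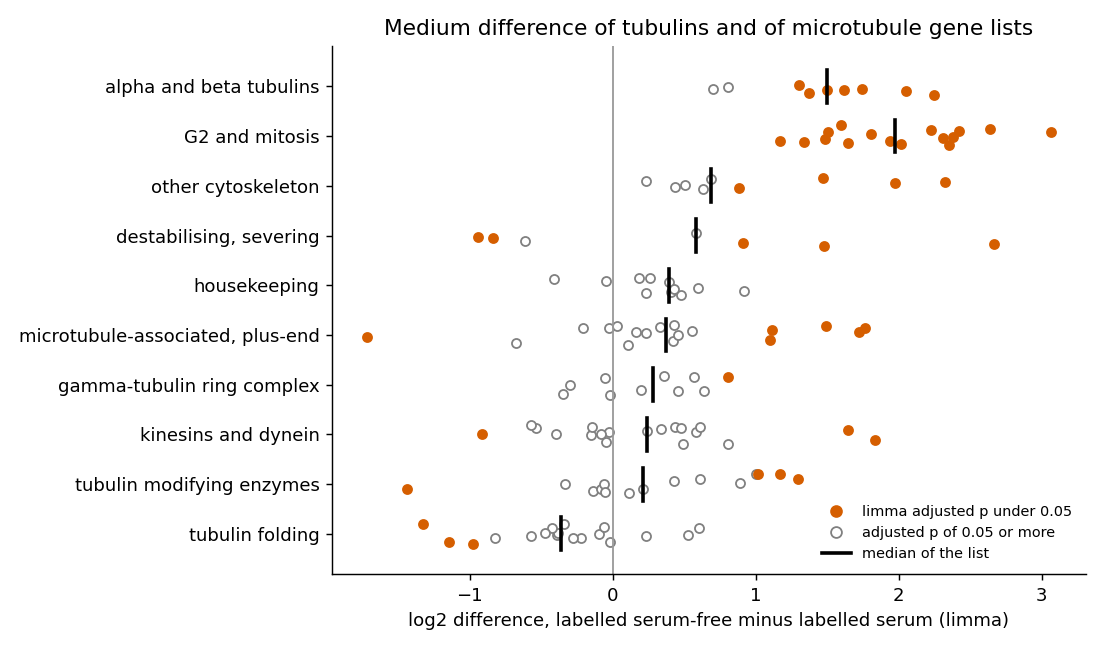
Fitted log2 difference, labelled serum-free minus labelled serum, for each gene of 10 lists, with filled points for a limma adjusted p under 0.05, open points otherwise and a bar at the list's median. The tubulins (median 1.50) and the genes of G2 and mitosis (1.98) lie to the right, and tubulin folding (-0.36) to the left of 0.

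Microtubule-associated and plus-end genes rose in 5 and fell in 1 of 18 cases, with a median of 0.38. MAP1A, a neuronal protein that binds along microtubules, read 270.9 and 708.3 labelled serum and 1455 and 1432 labelled serum-free, and rose 3.30-fold (limma adjusted p 0.0318). It was also 2.61-fold higher with DACH1 in the serum label, which is the pattern of TUBA1A. The plus-end genes MAPRE2 and MAPRE3 rose 2.81-fold and 3.40-fold, and CLIP2 fell 3.30-fold. MAP2, which binds dendritic microtubules, was lower with DACH1 in both media (44.0 and 4.4, the latter under the floor, then 85.1 and 25.9). It was the 1 gene of these lists 2-fold or more lower in both.

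Of 7 destabilising and severing genes 3 rose and 2 fell. STMN1, the stathmin that holds free tubulin dimers, rose 1.88-fold and the depolymerising kinesin gene KIF2C 2.78-fold, while KIF2A fell 1.78-fold and the spastin gene SPAST 1.93-fold. FIGN, which encodes the severing enzyme fidgetin, rose 6.34-fold from signals of 19.4 and 12.3. Of 19 genes of transport kinesins and dynein 2 rose and 1 fell. The dynein chain gene DYNC1I1 rose 3.57-fold and the dynactin gene DCTN1 3.14-fold, and KIF1C fell 1.89-fold. With DACH1 state 0 genes of any of these lists were called by limma, nor was DACH1 itself.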

How the data were processed

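The authors deposited linear-scale signal intensities, 1 for each probe set, computed by MAS5 from labelled cRNA of 6 µg total RNA, per the submitters' processing notes and the labels' protocols. The sources used here do not name the version of MAS5 or its target. The trimmed means of the 4 arrays (2% off each end) lie between 99.63 and 99.65. Probe sets were named from the GEO platform annotation, with symbols updated through Entrez identifiers: 41091 had 1 gene, 1801 several, and 11721 were not listed.

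Signals under the 40th percentile (10.9) were set to it before log2. A probe set entered the fit if 2 of 4 arrays reached the median (17.2), and a gene entered a pair if 1 of 2 did. limma 3.58.1 in R 4.3.3 (lmFit, eBayes) was fitted over 28654 probe sets with Benjamini-Hochberg adjustment. The fit was also run on simulated data with independent noise and a medium shift alone. Those data hold no DACH1 difference that varies with the medium, so that run says nothing about the calls given here. Each gene was read at its brightest probe set by mean log2 signal. Pairs of arrays have no test and were counted at 2-fold. In the 17 lists, 195 of 214 genes had a probe set of 1 gene. Genes named from the lists were up to 3 per direction with the largest called medium difference (up to 4 from the lists on the medium labels), up to 2 per direction at least 2-fold different for DACH1 in both media, and the members. TTC5, CNOT11, PGK1 and GAPDH were named after their values were seen. The members and lists were chosen with earlier results of these data known. Nothing in the labels says that arrays came from repeated cultures. Alternatives changed 1 choice each, except the last named here, which changed floor and filter together: a trend in the variance prior, quantile normalization, leaving out the floor or the filter, adding the floor as a pseudocount, asking every array to pass, the mean of a gene's probe sets, no _x_at or _s_at probe sets, 1 probe set per gene, each array left out, and a floor of 50 with a minimum of 100. Figures were drawn with matplotlib 3.10.9 in Python 3.11.15.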

Additional observations from a re-analysis of the deposited data

Results flagged for a closer look

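The DACH1 difference of the 9 measured tubulins had opposite signs in the 2 media in the deposited signals: each was above 0 in the pair labelled serum and below 0 in the pair labelled serum-free. The serum-free minus serum value in log2, the same as in the third comparison, was -1.44 for TUBA1A, -1.23 for TUBA4A, -1.15 for TUBB2A, -1.11 for TUBB6 and -0.98 for TUBB3. For TUBB4B it was -0.74, for TUBB -0.70, for TUBA1B -0.50 and for TUBA1C -0.49. The same pair of signs was seen in 23.4% of the genes in the fit and in 39.2% of the 760 bright genes. This difference was not tested, since each condition had 1 array, and with quantile normalization 5 of the 9 genes no longer had opposite signs. The induced arrays also differed in DACH1 itself, which read 4431 labelled serum and 875.1 labelled serum-free.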

How the results depend on the processing

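The count of tubulins that rose in the serum-free label was 7 of 9, and between 6 and 9 under quantile normalization, a pseudocount equal to the floor, every array above the median, a floor of 50 with a minimum of 100, a trend in the variance prior, 1 probe set per gene and the mean of all probe sets. With no floor it was 3, with no filter 0, and without _x_at and _s_at probe sets 4, of just 4 genes left. Over all probe sets 4669 were called higher and 3472 lower for the medium, with no floor 2601 and 1699, and with no filter 0 and 0, where 9567 had an unadjusted p under 0.05 (limma). Without _x_at and _s_at probe sets silenced cells had a median medium difference of 2.24 and induced cells 1.36. Leaving out 1 array, the median medium difference lay between 1.03 and 1.87 and the median DACH1 difference between -0.16 and 0.81, values with no test. TUBB6 lost its call in 5 settings (adjusted p up to 0.4905), and TUBA1B gained one in 4. The cause of these changes was not tested, apart from the genes left out. No tubulin was called for DACH1 or as lower for the medium in any setting. For DACH1 this says little, since at most 1 probe set or gene of all tested was called in any setting. No paired analysis was possible because the labels give no replicate numbers and each condition has 1 array; the pairs of arrays compared here are matched by DACH1 state or by medium alone. Signal over background limits TUBB2B alone among the members.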

Other observations

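Some genes outside the microtubule system had the tubulins' order of arrays. ACTN4, an actin crosslinker of the alpha-actinin family, read 271.1 in silenced and 867.3 in induced cells labelled serum, and 2502 and 2361.5 in those labelled serum-free, and rose 5.01-fold with the serum-free label (limma adjusted p 0.0241). The lamin genes LMNA and LMNB1 rose 2.77-fold and 3.93-fold. LMNA read 396.4 and 530.9 labelled serum and 1281 and 1258 labelled serum-free, and LMNB1 read 58.6 and 46.2, then 223.4 and 186.9, the 1 gene of its list without that order. The order was seen in 8 of 9 other cytoskeletal genes, in 14 of 16 genes of G2 and mitosis and in 6 of 11 housekeeping genes. Among the microtubule lists, it was seen in 8 microtubule-associated and plus-end genes (18 in the fit) and 3 kinesin and dynein genes (19 in the fit). It was also seen in 2 genes of the gamma-tubulin ring complex (10 in the fit), 2 modifying enzymes (15) and 1 destabilising gene (7). In tubulin folding it was seen in 0 of 18 genes. The share was 10.8% of the genes in the fit and 22.6% of the bright genes, and many genes of these lists are dimmer than the latter.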
